A study of Mus musculus with 8 samples.

Results

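Genomic imprinting leaves 1 parental copy of a gene active and the other silent, and 33 mouse genes known for it were examined here in CD8+ T cells. They were taken by symbol, whether or not they were detected, from tables listing 49490 genes for a Trim28 knockout experiment and 55291 genes for an IL-2 blockade experiment, and all 33 were listed in both. TRIM28 is a co-repressor brought to imprinting control regions by the zinc finger proteins ZFP57 and ZFP445, where it keeps the DNA methylation that tells the parental copies apart after fertilisation. Imprinted genes lie in clusters, many encode growth regulators or non-coding RNAs, and many are expressed mainly in the placenta, the embryo or the brain. The counts do not separate the parental copies, so the values below are total levels of each gene.

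PolyA RNA came from CD8+ T cells of mouse spleens and lymph nodes. Cells lacking Trim28 (Trim28-/-) were compared with Trim28fl/fl cells, which carry the floxed, undeleted gene and have the genotype WT in the sample labels, both after activation in culture. In a separate experiment, cells given an antibody against IL-2 were compared with untreated cells of genotype WT, both stimulated through CD3 and CD28 for 3 days. There were 4 groups of 2 libraries. Whether the libraries of a group stem from different mice or cultures is not stated, so a p-value reflects only how far these libraries vary, possibly for technical reasons. The Cre line, the age and strain of the mice and the length of activation in the knockout experiment are not given in the sources used here.

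Trim28 itself stood at 415 and 458 normalised reads (read counts divided by the library's size factor) in the knockout libraries, against 4262 and 4323 in the control libraries, and at 7926 and 8529 with anti-IL-2 against 5774 and 5919.8 in untreated cells. The CD8 T cell markers Cd8a, Cd8b1, Cd3d, Cd3e and Cd3g were present in all libraries, and their summed normalised count lay between 17098 and 28014. Some markers of other cell types differed between the groups. Of the CD4 T cell list, Cd4 had at most 9.55 normalised reads, while Foxp3, the regulatory T cell factor gene, had 43.3 and 49.0 in knockout against 4.06 and 5.07 in control libraries, and 8.59 and 9.59 with anti-IL-2 against 58.2 and 50.5 in untreated cells. Of the NK list, Ncr1 was listed at 0 in all libraries, while Eomes, which activated CD8 T cells also express, had 237 and 263 in knockout against 175 and 155 in control libraries, and 159 and 169 with anti-IL-2 against 353 and 373 in untreated cells. Of the B cell list, Ms4a1 had at most 1.91 reads, while Cd79b had 5.91 and 4.90 in knockout against 18.3 and 20.3 in control libraries, and 42.0 and 37.4 with anti-IL-2 against 35.3 and 25.7 in untreated cells.

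The 6 stromal and endothelial markers, all listed, summed to 656 to 706 in knockout and 377 to 622 in control libraries, and to 1161 to 1185 with anti-IL-2 and 577 to 636 in untreated cells, where Cdh5 was at 0. Most of each gap was Pecam1, which T cells also express, at 409.7 and 425 in knockout against 201 and 237 in control libraries, and at 995 and 957 with anti-IL-2 against 487 and 466 in untreated cells. Col1a2, with 36.4 and 47.1 in knockout against 31.4 and 96.3 in control libraries, and Col3a1, with 30.5 and 36.3 against 30.4 and 79.1, overlapped between groups. The 4 myeloid markers summed to 139.8 to 152 in knockout and 245 to 288 in control libraries, and to 84.0 to 84.4 with anti-IL-2 and 339.8 to 353 in untreated cells, where Csf1r was at 0. Most of each myeloid sum was Cd68, at 125 and 127 in knockout against 222 and 208 in control libraries. With anti-IL-2 Cd68 was at 72.6 and 66.2 against 326 and 339 in untreated cells. Lyz2 was higher with anti-IL-2 (5.73 and 6.71 against 2.08 and 4.12) and Itgam was lower (5.73 and 9.59 against 11.4 and 10.3). The part of these other cell types in the results below was not tested. Collagen and macrophage genes were uneven between the control libraries. Col1a1 had 159 and 174 normalised reads in the knockout against 90.3 and 189.6 in control replicates 1 and 2, and Lyz2 had 4.92 and 11.8 in the knockout against 8.11 and 45.6 in the same control libraries. Between 13222831 and 17069569 reads per library were assigned to genes.

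The promoter windows of Plagl1, Mest, Airn, Inpp5f and Grb10 are shown, as these are the genes with a listed window that were called and changed by at least 1.5-fold in an experiment. Mest has 3 listed windows and Grb10 has 2, and the one shown is the first listed that holds the letters marked. Each is the RefSeq window on GRCm38 from 250 bases before to 50 bases after an annotated start, written 5′ to 3′ on the gene's strand. Capitals mark TGCCGC, the letters that ZFP57 binds when methylated, or their reverse complement GCGGCA.
Plagl1, chr10:13090582-13090881, plus strand: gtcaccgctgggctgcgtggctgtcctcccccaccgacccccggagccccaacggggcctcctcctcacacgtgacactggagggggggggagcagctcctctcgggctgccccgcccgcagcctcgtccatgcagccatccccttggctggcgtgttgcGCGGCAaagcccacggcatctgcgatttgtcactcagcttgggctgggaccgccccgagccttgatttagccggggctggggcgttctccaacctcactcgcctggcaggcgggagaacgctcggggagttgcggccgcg
Mest, chr6:30737800-30738099, plus strand: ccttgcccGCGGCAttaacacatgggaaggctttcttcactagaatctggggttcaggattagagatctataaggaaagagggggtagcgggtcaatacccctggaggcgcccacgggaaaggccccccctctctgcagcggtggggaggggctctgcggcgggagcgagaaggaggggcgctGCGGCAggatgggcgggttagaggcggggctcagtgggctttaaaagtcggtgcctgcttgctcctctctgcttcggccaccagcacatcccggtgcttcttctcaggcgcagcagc
Airn, chr17:12741061-12741360, plus strand: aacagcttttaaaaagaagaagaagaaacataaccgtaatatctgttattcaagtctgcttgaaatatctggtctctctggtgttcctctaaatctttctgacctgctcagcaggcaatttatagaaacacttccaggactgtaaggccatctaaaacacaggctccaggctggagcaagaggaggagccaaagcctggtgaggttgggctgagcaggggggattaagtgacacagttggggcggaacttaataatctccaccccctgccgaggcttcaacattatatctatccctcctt
Inpp5f, chr7:128611115-128611414, plus strand: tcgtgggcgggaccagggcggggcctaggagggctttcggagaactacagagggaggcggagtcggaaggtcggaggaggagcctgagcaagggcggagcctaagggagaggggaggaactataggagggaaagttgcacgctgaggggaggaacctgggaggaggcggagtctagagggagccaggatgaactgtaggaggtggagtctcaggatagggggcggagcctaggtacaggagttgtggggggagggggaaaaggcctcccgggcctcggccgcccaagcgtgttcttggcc
Grb10, chr11:12037371-12037670, minus strand: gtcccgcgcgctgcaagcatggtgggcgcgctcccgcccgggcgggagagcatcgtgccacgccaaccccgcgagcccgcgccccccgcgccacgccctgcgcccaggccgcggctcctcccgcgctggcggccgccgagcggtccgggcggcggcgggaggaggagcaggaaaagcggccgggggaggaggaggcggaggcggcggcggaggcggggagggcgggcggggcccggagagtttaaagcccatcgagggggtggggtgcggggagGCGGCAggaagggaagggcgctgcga

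Windows were listed for 25 of the 33 genes, and TGCCGC on either strand was present in a window of 10 of them (40.0%), against 3527 of 27025 genes in the whole table (13.1%). By window, 11 of 39 imprinted windows (28.2%) held them, against 11.6% of all 32851. The genes were also split by a list of those with a promoter in a region methylated in the germline. Of the listed genes 6 of 10 held them, against 4 of 15 other imprinted genes. By window this was 7 of 15, with Mest counted through windows that overlap almost fully, against 4 of 24. The list was not checked against methylation data. The median number of CpG pairs was 14 in imprinted windows and 7 over all windows. Of the genes with the letters, Plagl1, Mest and Commd1 were called lower in the knockout, Mcts2, Nnat, Grb10 and Meg3 were not called there, and Nap1l5, Snrpn and Igf2 were too low to test. Airn, which was also lower, and Inpp5f, which was higher, held no TGCCGC in the windows shown.

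Of the 33 genes, 24 reached a normalised count of at least 10 in at least 2 libraries of an experiment and could be tested in it, 19 of them in both experiments. The 9 that reached it in neither were H19, Igf2, Mirg, Rtl1, Ndn, Phlda2, Slc22a18, Sgce and Nap1l5. The solute carrier gene Slc22a18 was silent in the knockout experiment, listed at 0 in all 4 libraries, where a count of 0 allows up to 3 reads, or 0.223 to 0.227 CPM (counts scaled to library size). In the blockade experiment it had 1 read in a single anti-IL-2 library. Ndn, which encodes the growth suppressor necdin, had 1 read in each experiment. The growth factor gene Igf2 had 0 and 4 reads in knockout libraries against 6 and 9 in control libraries, and 0 and 0 with anti-IL-2 against 1 and 0 in untreated cells. H19, the non-coding RNA that shares Igf2's control region, had 0 and 4 reads in knockout libraries against 5 and 11 in control libraries, and 0 and 1 with anti-IL-2 against 0 and 0 in untreated cells. Its higher control value was in replicate 2, the library with the higher collagen counts, and the part of those cells in these counts was not tested. The untested members of the Dlk1-Meg3 cluster were near the limit of detection. Mirg, a microRNA host, had 1 and 4 reads in knockout against 1 and 2 in control libraries, and 4 and 3 with anti-IL-2 against 2 and 1 in untreated cells. Rtl1, a retrotransposon-derived gene of the placenta, had 4 and 7 in knockout against 3 and 4 in control libraries, and 2 and 5 with anti-IL-2 against 0 and 0 in untreated cells. Rian had 6 and 6 with anti-IL-2 against 4 and 3 in untreated cells, and Dlk1 had 9 and 6 in knockout against 7 and 8 in control libraries. Their groups mostly overlapped or differed by a few reads.

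The other low members were no more abundant. Phlda2, a gene that restrains placental growth, had 3 and 6 reads in knockout against 3 and 6 in control libraries, and 7 and 8 with anti-IL-2 against 4 and 3 in untreated cells. Sgce, the epsilon-sarcoglycan gene, had 4 and 4 in knockout against 8 and 8 in control libraries. Nap1l5, related to nucleosome assembly genes, had 6 and 8 in knockout against 2 and 6 in control libraries, and 1 and 0 with anti-IL-2 against 2 and 0 in untreated cells. Snrpn had 4 and 3 in knockout against 3 and 3 in control libraries, and Peg3 had 5 and 7 with anti-IL-2 against 7 and 10 in untreated cells. When all genes were tested without the filter on low values, Sgce passed as lower in the knockout (log2 fold change -0.89, SE 0.084, limma adjusted p = 0.0138). Its small SE reflects the equal reads within each group and does not cover counting error, for which no interval was computed. No other untested member passed in either experiment.

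Among the genes tested, levels per exon length spread widely. In knockout cells Gnas, the gene of the stimulatory G protein alpha subunit, was highest at 79.1 ± 1.48 RPKM, reads per kilobase of exon scaled to library size (SD, n = 2), against 71.8 ± 1.16 in control cells. Igf2r, which encodes the receptor that carries IGF2 to lysosomes, followed at 19.7 ± 0.0842 in knockout and 20.3 ± 0.43 in control cells. The neighbours next in the order of the control group, Plagl1 (12.2 ± 0.437), Ube3a (6.94 ± 0.234) and Blcap (6.13 ± 0.221), were each separated by more than their SDs, while Impact (4.09 ± 0.226) and Mcts2 (4.06 ± 0.696) were not. At the low end lay Rian (0.0429 in knockout and 0.0352 in control cells), Meg3 (0.0452 and 0.0647), Mest (0.0472 and 0.22) and Peg3 (0.12 and 0.0879).

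In Trim28 knockout cells 4 of 22 tested imprinted genes rose, 7 fell and 11 did not pass. Called genes were 18.2% higher and 31.8% lower of those tested, against 32.9% higher and 28.2% lower over all 15415 tested genes (limma, adjusted p under 0.05). In either direction the share was 50% against 61.0%. The groups did not overlap for 17 of the 22, where 82.3% of all tested genes did not overlap either. The median log2 fold change was -0.089 over the imprinted genes and 0.031 over all tested genes. Changes reached 2-fold in Plagl1 and Airn, both decreases, and in Mest. Mest met the filter only through its control libraries, so its call could only be a decrease. In bulk RNA, fewer cells of a type and less RNA per cell cannot be told apart.

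**Figure D1:**
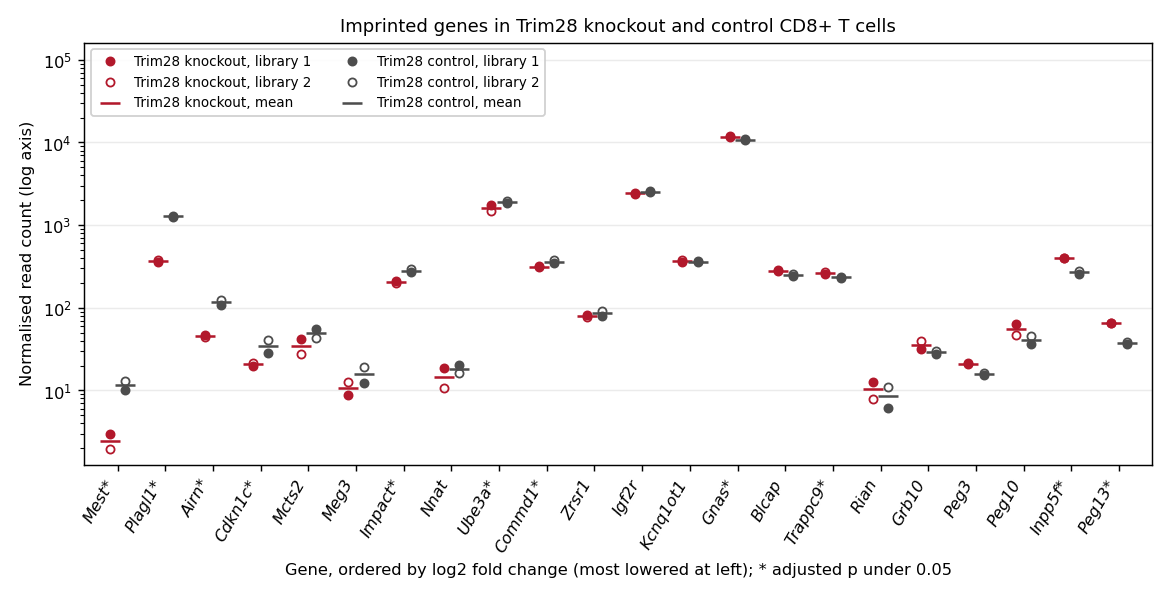
Normalised read counts (log axis) of the 22 tested imprinted genes in each library, with Trim28 knockout in red at the left and control in grey at the right of each gene, means as bars and called genes starred. Plagl1 and Airn stand well below their control values and Peg13 and Inpp5f above them, while most other genes lie close to their control levels.

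Plagl1 (chr10:13060504-13131694, plus strand, GRCm38), an imprinted zinc finger transcription factor gene, fell most among the well-detected members. It had 359 and 380.4 normalised reads in knockout libraries, against 1247 and 1308 in control libraries. The groups were far apart, with a log2 fold change of -1.79 (SE 0.05, limma adjusted p = 7.84e-06), a 3.45-fold lower level. Sf3b5, the nearest tested gene on one side, was slightly higher (0.19, adjusted p = 0.0146), while Stx11 and Ltv1 were at -0.008 and -0.042 and did not pass.

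Airn (chr17:12741311-12860136, plus strand), the long non-coding RNA transcribed across Igf2r on the paternal copy, where it silences Igf2r, had 47.3 and 44.1 normalised reads in knockout libraries against 109.5 and 123 in control libraries. It fell by 1.33 on the log2 scale (SE 0.11, limma adjusted p = 0.000222). Igf2r (chr17:12682406-12769664, minus strand) had 2414 and 2430.1 normalised reads in knockout libraries against 2502 and 2571 in control libraries. The Igf2r groups did not overlap, but the difference was small and did not pass (log2 fold change -0.067, SE 0.03, adjusted p = 0.102). It passed as lower with upper-quartile scaling (adjusted p = 0.00715) and with edgeR (0.0302). The annotated exons of the pair shared 0 bases, but whether reads from Igf2r introns were counted to Airn was not tested.

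Mest (chr6:30723547-30748465, plus strand), which encodes a hydrolase-like protein and is expressed from the paternal copy in mesoderm, fell but was barely detected. It had 3 and 2 reads in knockout libraries against 10 and 13 in control libraries. The ratio was 0.211 with an exact 95% counting interval of 0.0626 to 0.566, and the fitted log2 fold change was -1.88 (SE 0.35, limma adjusted p = 0.00474). DESeq2 did not call it (adjusted p = 0.12), and leaving out either control library took it below the filter. Cdkn1c, the gene of the cell cycle inhibitor p57, had 19.7 and 21.6 normalised reads in knockout libraries against 28.4 and 40.5 in control libraries (log2 fold change -0.69, SE 0.22, adjusted p = 0.0331). That call did not hold with control replicate 2, the library with more collagen reads, left out (adjusted p = 0.148), nor with knockout replicate 1 (0.187) or 2 (0.142) left out, nor with DESeq2 (0.313), no filter (0.125) or a fit of all 8 libraries (0.122). For both genes the part of stromal cells was not tested.

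Smaller decreases were seen in widely expressed members. Impact, whose protein inhibits the amino acid sensor kinase GCN2, had 209 and 201 normalised reads in knockout libraries against 271 and 292 in control libraries, and fell by 0.46 on the log2 scale (SE 0.068, limma adjusted p = 0.00202). Ube3a, the ubiquitin ligase gene imprinted in neurons, had 1742 and 1485 in the knockout against 1877 and 1964 in control (-0.26, adjusted p = 0.029). Leaving out knockout replicate 2 (adjusted p = 0.104) or control replicate 2 (0.0538), or the filter on low values (0.18), ended the Ube3a call. Commd1, a copper and NF-kappaB regulator gene, had 310.2 and 319.6 in the knockout against 346 and 374 in control (-0.19, adjusted p = 0.0373), and dropping control replicate 2 (adjusted p = 0.177), knockout replicate 1 (0.182) or knockout replicate 2 (0.128) ended the call, as did DESeq2 (0.289), no filter (0.0984) and a fit of all 8 libraries (0.075).

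Peg13 (chr15:72805600-72810324, minus strand), a non-coding RNA inside an intron of Trappc9, rose most. It had 65.0 and 64.7 normalised reads in knockout libraries against 36.5 and 38.5 in control libraries, a log2 fold change of 0.77 (SE 0.12, limma adjusted p = 0.0022), or 1.71-fold. DESeq2 did not call it (adjusted p = 0.138). Inpp5f (chr7:128611328-128696425, plus strand), an inositol phosphatase gene with a paternally expressed brain isoform that gene counts cannot separate, had 406 and 405 in the knockout against 258 and 279 in control (0.59, SE 0.061, adjusted p = 0.000455). Its neighbour Mcmbp was also higher (0.43) and Bag3 was lower (-0.42). Gnas rose slightly, with 11519 and 11837 in the knockout against 10668 and 10882 in control (0.12, SE 0.026, adjusted p = 0.00982). The Gnas call ended with either knockout library dropped (adjusted p = 0.0501 for replicate 1 and 0.0839 for replicate 2), with upper-quartile scaling (0.243) and with DESeq2 (0.0566). Trappc9, the trafficking gene that hosts Peg13, had 258 and 272 in the knockout against 237 and 229 in control (0.18, adjusted p = 0.0464). Leaving out knockout replicate 1 or 2 or control replicate 1 or 2 gave adjusted p = 0.085, 0.162, 0.0773 and 0.162, and the call also ended with TMM scaling (0.061), upper-quartile scaling (0.197), edgeR (0.148), DESeq2 (0.593), no filter (0.0709), a fit of all 8 libraries (0.144) and the replicate number as a block (0.0839), in all 11 of 15 alternatives.

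The other 11 tested genes did not pass in the knockout. Kcnq1ot1, the long non-coding RNA that silences its cluster on distal chromosome 7, had 357 and 381 normalised reads in knockout libraries against 369 and 356 in control libraries (log2 fold change 0.027, SE 0.058, limma adjusted p = 0.713). Its groups overlapped, and the sign changed with upper-quartile scaling, edgeR and DESeq2. The adaptor gene Grb10 had 31.5 and 39.2 in the knockout against 27.4 and 30.4 in control (0.28, adjusted p = 0.211). The retrotransposon-derived placental gene Peg10 had 64.0 and 47.1 in the knockout against 36.5 and 45.6 in control (0.42, adjusted p = 0.113), and the zinc finger gene Peg3 had 20.7 and 21.6 against 15.2 and 16.2 (0.40, adjusted p = 0.105). Peg10 passed as higher with crossed numbers as the block (0.041) and Peg3 without the filter (0.0463). From the Dlk1-Meg3 cluster, the maternally expressed non-coding RNA Meg3 had 8.86 and 12.7 in the knockout against 12.2 and 19.3 in control, and Rian, the host of small nucleolar RNAs, had 12.8 and 7.84 against 6.09 and 11.2. Both overlapped between groups. Blcap had 276 and 283 in the knockout against 244 and 256 in control, without overlap (0.16, adjusted p = 0.0634), and Nnat had 18.7 and 10.8 against 20.3 and 16.2, with overlap (-0.33, adjusted p = 0.381).

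With anti-IL-2, 5 of 21 tested imprinted genes rose, 6 fell and 10 did not pass. The called shares were 23.8% higher and 28.6% lower, against 31.4% higher and 28.9% lower over all 13978 tested genes, and 52.4% against 60.3% in either direction. The groups did not overlap for 16 of the 21, where 79.3% of all tested genes did not overlap either. Median log2 fold changes were 0.026 over the imprinted genes and 0.018 over all tested genes. Grb10 was at least 2-fold higher and Peg10 at least 2-fold lower.

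**Figure D2:**
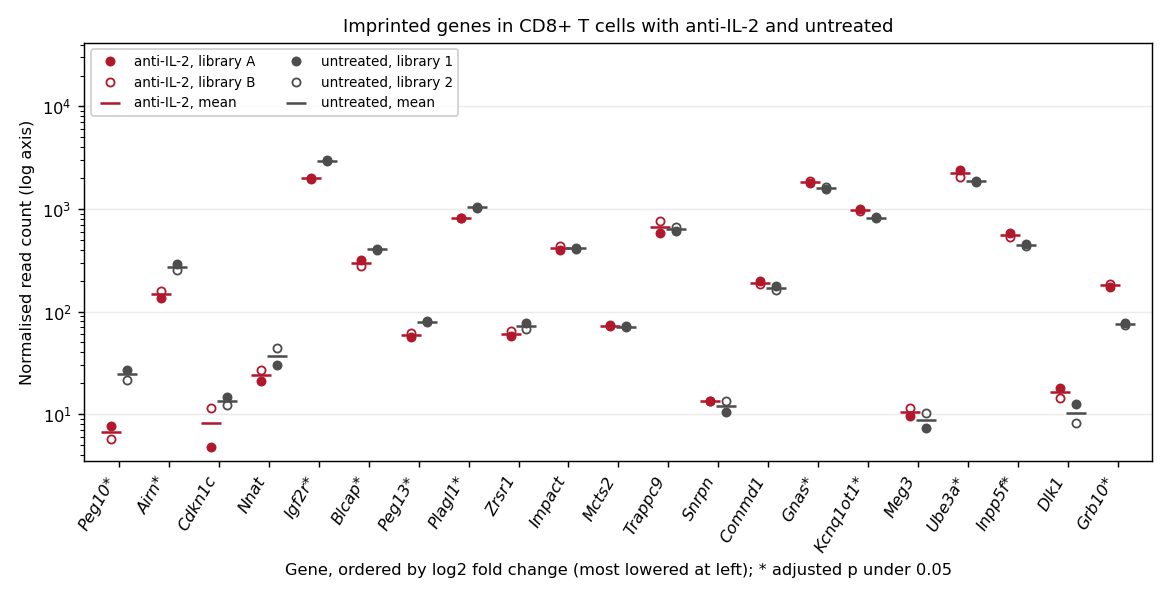
Normalised read counts (log axis) of the 21 tested imprinted genes, with anti-IL-2 in red at the left and untreated in grey at the right of each gene, means as bars and called genes starred. Grb10 stands above its untreated level in both anti-IL-2 libraries, and Peg10, Airn and Igf2r stand below theirs.

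Grb10 (chr11:11930508-12038683, minus strand), which encodes an adaptor that dampens insulin and growth factor receptor signalling, had 174 and 186 normalised reads with anti-IL-2, against 77.9 and 74.2 in untreated cells. The groups did not overlap, and the gene rose by a log2 fold change of 1.23 (SE 0.14, limma adjusted p = 2.59e-07), or 2.35-fold. Fignl1, a tested gene near it, was also higher (1.45, adjusted p = 1.1e-13), and Ddc did not pass (-0.014, adjusted p = 0.943). Inpp5f rose as well, with 580.4 and 537 with anti-IL-2 against 458 and 432 in untreated cells (0.33, SE 0.079, adjusted p = 0.00153). Kcnq1ot1 had 1008 and 948 with anti-IL-2 against 835 and 816 in untreated cells (0.24, SE 0.065, adjusted p = 0.00334), and its call was lost without untreated replicate 2 (0.0548).

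Ube3a and Gnas were slightly higher. Ube3a had 2411 and 2072 normalised reads with anti-IL-2 against 1877 and 1837 in untreated cells (log2 fold change 0.27, SE 0.065, limma adjusted p = 0.00147), a call lost without the filter on low values (adjusted p = 0.117). Gnas had 1807 and 1860.5 with anti-IL-2 against 1568 and 1646 in untreated cells (0.19, SE 0.057, adjusted p = 0.00695). The Gnas call was lost without untreated replicate 1 (adjusted p = 0.172), with DESeq2 (0.0534) and without the filter (0.0523).

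Peg10 (chr6:4747306-4760517, plus strand) was low in level and fell most among the members tested with the antibody. It had 7.64 and 5.75 normalised reads with anti-IL-2, against 27.0 and 21.6 in untreated cells. The log2 fold change was -1.72 (SE 0.36, limma adjusted p = 0.000465). Peg10 met the filter only through the untreated libraries, and leaving out either of them took it below the filter. Sgce, which shares its imprinted promoter region, had 1 and 4 reads with anti-IL-2 against 7 and 10 in untreated cells and was not tested. Mest had 1 and 2 reads with anti-IL-2 against 5 and 7 in untreated cells, a ratio of 0.231 with a 95% counting interval of 0.0419 to 0.857. Of the stromal markers, Col1a1 had 109 and 96.9 with anti-IL-2 against 41.6 and 80.3 in untreated cells, and Col3a1 had 33.4 and 36.4 against 8.31 and 30.9. Col1a2 (22.0 and 42.2 against 11.4 and 29.9) and Pdgfrb (23.9 and 28.8 against 28.1 and 29.9) overlapped between groups. The part of stromal cells in the Peg10, Sgce and Mest counts was not tested.

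Igf2r and Airn both fell with anti-IL-2. Igf2r had 2018 and 1975 normalised reads with anti-IL-2 against 2987 and 2949.6 in untreated cells (log2 fold change -0.57, SE 0.052, limma adjusted p = 1.74e-08). Airn had 137 and 157 with anti-IL-2 against 293 and 255 in untreated cells (-0.90, SE 0.12, adjusted p = 2.16e-06). Neither pair of groups overlapped. Plagl1 fell to 812 and 809 with anti-IL-2, against 1056 and 1013 in untreated cells (-0.35, SE 0.064, adjusted p = 0.000101). Blcap, an apoptosis-linked gene that contains Nnat, had 317 and 276 with anti-IL-2 against 407 and 399 in untreated cells (-0.44, SE 0.093, adjusted p = 0.000399). Peg13 had 56.3 and 61.4 against 81.1 and 78.3 (-0.43, SE 0.17, adjusted p = 0.0376). The Peg13 call was lost without untreated replicate 1 (adjusted p = 0.135), untreated replicate 2 (0.0877) or anti-IL-2 library A (0.136), with DESeq2 (0.218) and without the filter (0.059).

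Of the genes that did not pass, Impact had 401 and 434 normalised reads with anti-IL-2 against 408 and 418 in untreated cells, and Mcts2, a retrogene of a translation factor, had 71.6 and 73.8 against 71.7 and 71.1. Both pairs of groups overlapped. Trappc9 varied between the anti-IL-2 libraries, at 585 and 759.5, against 611 and 674 in untreated cells, and was called higher without anti-IL-2 library A (adjusted p = 0.00222). Nnat, a proteolipid gene, had 21.0 and 26.9 against 30.1 and 44.3 (log2 fold change -0.60, limma adjusted p = 0.0619), and was called lower without untreated replicate 1 (0.0191), without anti-IL-2 library B (0.0259) and with upper-quartile scaling (0.0474). Cdkn1c had 4.77 and 11.5 with anti-IL-2 against 14.5 and 12.4 in untreated cells (-0.76, adjusted p = 0.142), and was called lower without anti-IL-2 library B (adjusted p = 0.0103). The Notch-related growth gene Dlk1 had 18.1 and 14.4 against 12.5 and 8.24, Meg3 had 9.55 and 11.5 against 7.27 and 10.3, and the splicing protein gene Snrpn had 13.4 and 13.4 against 10.4 and 13.4.

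The experiments shared no library, and 1 model over the 8 libraries tested whether the knockout effect differed from the anti-IL-2 effect. It did for 9 of 19 imprinted genes (47.4%), against 41.7% of 12428 genes tested in both. The difference was positive for 4, against 24.7% of all tested genes, and negative for 5, against 17.0%. Plagl1 fell further in the knockout than with anti-IL-2 (difference of log2 fold changes -1.43, SE 0.077, limma adjusted p = 2.14e-08). Peg10 and Peg13 were lower with anti-IL-2 and not in the knockout, with differences of 2.14 (SE 0.38, adjusted p = 0.000656) and 1.21 (SE 0.22, adjusted p = 0.000761). Igf2r (0.51, adjusted p = 1.24e-05), Blcap (0.60, adjusted p = 0.00131) and Grb10 (-0.95, adjusted p = 0.00555) also differed, as did Ube3a (-0.52), Impact (-0.47) and Commd1 (-0.36). Commd1 lost its call without knockout replicate 1 or 2 (adjusted p = 0.0956 and 0.0657), control replicate 2 (0.127), untreated replicate 2 (0.107) or anti-IL-2 library A (0.0823), and without the filter (0.0534). Peg13 and Ube3a were called in opposite directions in the 2 experiments. Airn, lower in both, did not pass the test of a difference (-0.43, adjusted p = 0.0733), although it did without anti-IL-2 library A (0.0467). The effects on Inpp5f also passed as different without control replicate 2 (0.044), without anti-IL-2 library A (0.0324) and with the filter at 50 (0.0443), those on Kcnq1ot1 without anti-IL-2 library B (0.0346), with TMM scaling (0.0416) and with upper-quartile scaling (0.0403), those on Trappc9 without anti-IL-2 library B (0.0401), and those on Mcts2 (0.0333) without knockout replicate 1.

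**Figure D3:**
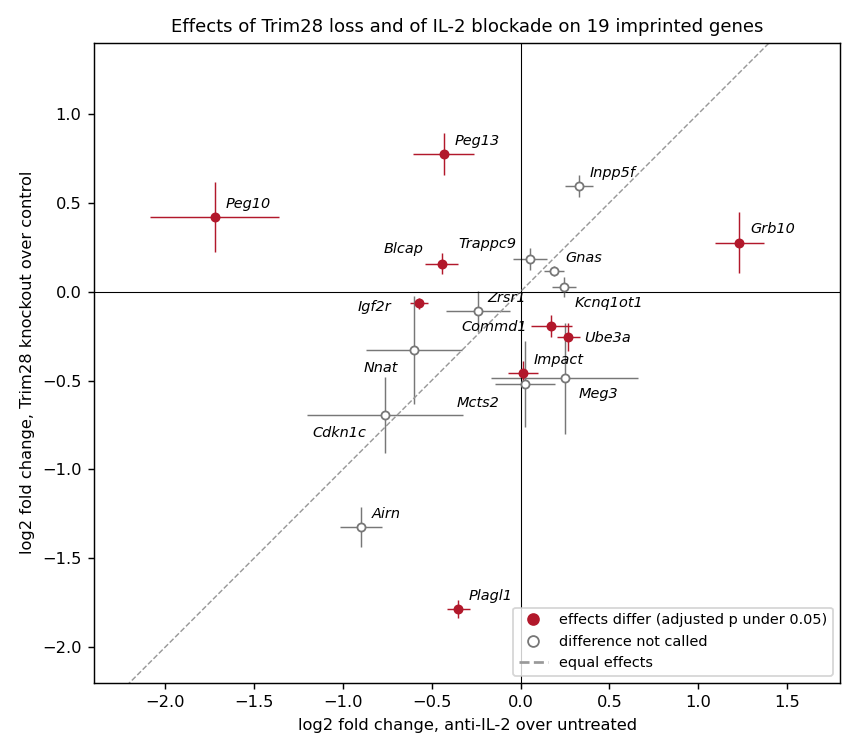
Log2 fold change of Trim28 knockout over control (vertical) against anti-IL-2 over untreated (horizontal) for the 19 imprinted genes tested in both, with SE as lines and red points where the effects differed at an adjusted p under 0.05. Plagl1 and Airn lie below 0 on both axes, Inpp5f and Gnas above 0 on both, and Peg10 and Peg13 to the upper left.

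Several imprinted genes lie inside or across another gene, an arrangement that let each pair be read side by side. In the knockout, Trappc9 was at 0.18 and the Peg13 inside it at 0.77, Igf2r at -0.067 and Airn at -1.33, and Blcap at 0.16 and the Nnat inside it at -0.33. H13, a peptidase gene that contains Mcts2 and ends its transcripts differently according to parental copy, had 3087 and 3170.3 normalised reads in knockout libraries against 2934 and 2804 in control libraries and was slightly higher (log2 fold change 0.13, limma adjusted p = 0.0225). Mcts2 had 42.3 and 27.4 in knockout libraries against 55.8 and 43.6 in control libraries and did not pass (-0.52, adjusted p = 0.109). It passed as lower with the replicate number as a block (adjusted p = 0.031) and in a fit of all 8 libraries (0.0462). Zrsr1, a splicing factor retrogene within Commd1, had 82.7 and 76.5 in knockout libraries against 80.1 and 92.2 in control libraries (-0.11, adjusted p = 0.427). With anti-IL-2, Zrsr1 had 57.3 and 64.3 against 76.9 and 66.9 in untreated cells (-0.24, adjusted p = 0.262) and Commd1 had 199 and 184 against 178 and 162 (0.17, adjusted p = 0.21). Exons of Zrsr1 and Commd1 shared 412 bases on opposite strands and those of Mest and Copg2 shared 912. No strand information was given, so reads there cannot be told apart. Peg13 and Mcts2 lie on the same strand as Trappc9 and H13. Whether reads from introns of an outer gene were counted to the gene inside or across it was not tested for any pair.

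**Figure D4:**
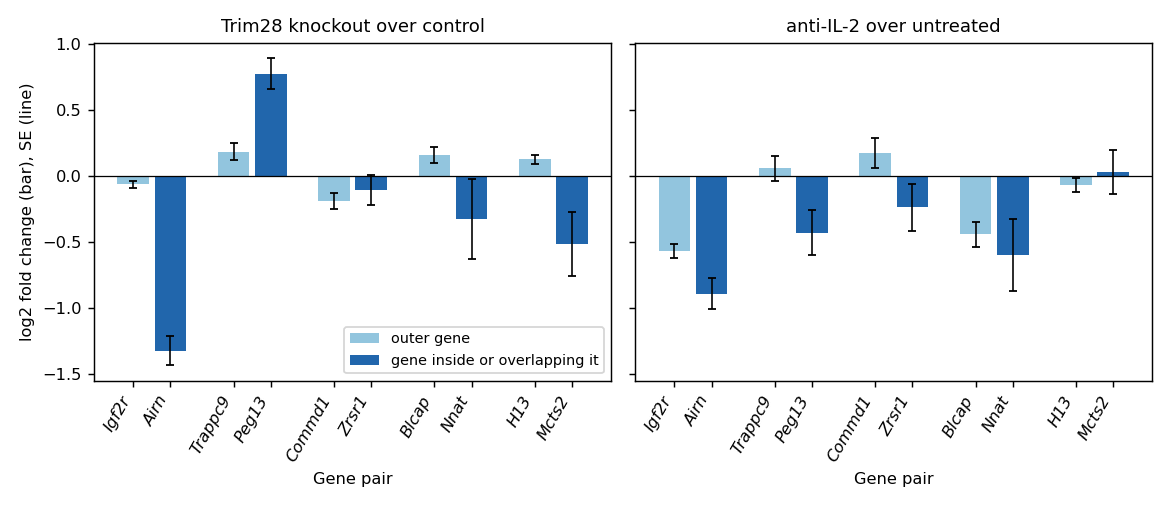
Log2 fold change (bar) with SE (line) of 5 genes and of the imprinted gene inside or overlapping each, in Trim28 knockout over control (left panel) and anti-IL-2 over untreated (right panel). Airn lies below Igf2r in the knockout, and Peg13 lies above Trappc9 there and below it with anti-IL-2.

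Among the 13 imprinted genes listed here as having a promoter in a region methylated in the germline, 11 were tested in the knockout. Of these, Peg13 rose, and Airn, Plagl1, Mest and Impact fell, with a median log2 fold change of -0.33 against 0.031 over all tested genes. That median was the value of Nnat, which did not pass and was at 0.042 without knockout replicate 2. Mest met the filter only through its control libraries. With anti-IL-2, 10 were tested, of which Kcnq1ot1 rose and Airn, Plagl1, Peg10 and Peg13 fell, with a median of -0.29 against 0.018. The called shares were 45.5% in the knockout and 50% with anti-IL-2, against the 61.0% and 60.3% given above.

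A further list of 50 imprinted genes gave 23 tested in each experiment. In the knockout 11 rose and 5 fell (69.6% called, against 61.0% of all tested genes), with a median log2 fold change of 0.18 against 0.031 over all tested genes. Atp10a, a phospholipid flippase gene, had 4219 and 4211 normalised reads in knockout libraries against 2852 and 2885 in control libraries (log2 fold change 0.56, limma adjusted p = 3.13e-05). The chromatin gene Jade1 (0.55) and the paraoxonase gene Pon2 (0.46) also rose, while the decoy death receptor gene Tnfrsf23 (-1.27) and the creatine synthesis gene Gatm (-1.69) fell. With anti-IL-2, 11 rose and 7 fell (78.3% called, against 60.3%), with a median of 0.26 against 0.018. There the tetraspanin genes Cd81 (1.13) and Tspan32 (0.93) and the cholesterol synthesis gene Dhcr7 (0.93) rose, and Atp10a (-0.49) and Tnfrsf23 (-2.87) fell. Tnfrsf23 was low, at 5.73 and 6.71 normalised reads with anti-IL-2 against 44.7 and 59.7 in untreated cells. It met the filter there only through the untreated libraries.

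Of 24 listed genes of imprint maintenance, among them the DNA demethylation genes of the Tet family, 23 were tested in the knockout. There 15 rose and 7 fell, the Tet genes among those that fell. The called share was 95.7%, against 61.0% of all tested genes, and the median log2 fold change was 0.43, against 0.031. Setdb1, the histone methyltransferase partner of TRIM28, and Zfp445 were the top 2 by adjusted p, at log2 fold changes of 2.76 and 0.89. The maintenance methylation genes Uhrf1 (0.80) and Dnmt1 (0.69) and the remodeller gene Hells (0.58) followed. Zfp57 was hardly detected, at 0 and 2.94 normalised reads in knockout libraries against 10.1 and 12.2 in control libraries. Tet1 was also low, at 1.97 and 6.86 against 21.3 and 14.2. Both are among those that fell, and both met the filter only through the control libraries. With anti-IL-2, 15 rose and 3 fell of 22 (81.8% called, against 60.3%, and median 0.43, against 0.018), with Cbx5, an HP1 protein gene, at 1.51, Hells at 1.25, Dnmt1 at 1.17, Uhrf1 at 1.11 and the DNA demethylation gene Tet2 at -0.99.

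Of the tested genes that start within 250 kb of a called imprinted gene, members left out, 13 of 44 rose and 11 fell in the knockout (54.5% called, against 61.0% of all tested genes). With anti-IL-2, 15 of 39 rose and 8 fell (59.0%, against 60.3%). Around Mest in the knockout, Cep41 rose (log2 fold change 0.76, limma adjusted p = 0.00143) and Copg2 fell slightly (-0.22). Beside Gnas, Npepl1 rose in the knockout (0.83) and with anti-IL-2 (0.71), and so did Nelfcd (0.46 and 0.32), a subunit gene of the NELF pausing complex. Stx16 passed only as lower with anti-IL-2 (-0.15), and the antisense transcript Nespas (0.42, adjusted p = 0.169) and Ctsz (-0.15 with anti-IL-2) did not pass. Next to Cdkn1c, Nap1l4 (0.25) and Cars (0.16) were higher in the knockout, opposite to Cdkn1c. On the Ube3a side, 9330162G02Rik, an annotated transcript that shares 1796 exon bases with it on the opposite strand, was lower in the knockout (-0.40) and with anti-IL-2 (-1.48), and Gm44829 did not pass.

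Of the remaining neighbours, some were called in either direction and others did not pass. In the knockout, B3gnt2 beside Commd1 (-0.24), Gm7599 beside Impact (-0.49) and Ago2 beside Trappc9 (-0.10) were lower. Cct4, 9130230N09Rik, Gm5687, Chrac1, Gm3150, Gm7258 and Sec23ip did not pass there, nor did the pseudogenes Gm16574 and Gm7162 within Airn. With anti-IL-2, Gm16574 was lower (-0.79, limma adjusted p = 0.0226), as Airn was, while Gm7162 did not pass. Near Plagl1, Sf3b5 was higher (0.26) and Stx11 lower (-0.32) with anti-IL-2. Bag3 was lower (-0.95), Tial1 was lower (-0.19) and Mcmbp was higher (0.45) near Inpp5f, Tssc4 (0.49) and R74862 (0.98) were higher near Kcnq1ot1, and Ctnnbl1 was higher near Blcap (0.20). Ltv1, Sec23ip, Src, Gm14286 and, around Peg10, Gm44432, Casd1 and Gmfg-ps did not pass with anti-IL-2.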

How the data were processed

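What the authors deposited is a normalised signal for each gene, its read count divided by a size factor of the library, set within each experiment. The submitters' processing notes name mm10, DESeq2, StringTie 2.1.4, HISAT2 2.2.1 and Trim Galore 0.4.4. The read counter, annotation and strand setting are not given in the sources used here. The authors also deposited log2 fold changes, test statistics (a score) and p-values, which were not used. Dividing by the value of 1 read recovered whole reads for 100% of values (tolerance 0.001 reads). Replicate libraries differed by more than sampling noise (chi-square per degree of freedom 1.32 to 3.87). Genes at 10 or more in at least 2 libraries were compared on log2 (value + 1), which understates changes of low genes, with limma 3.58.1 in R 4.3.3 (mean-variance trend, Benjamini-Hochberg over all tested genes), and called at an adjusted p under 0.05. Alternatives were edgeR 4.0.16 and DESeq2 1.42.0 on recovered reads, other scalings, pseudocounts and filters, a fit of all 8 libraries, the replicate number as a block, and each library left out. The limma fit within an experiment and the edgeR and DESeq2 fits were tested on simulated data. The fit of all 8 libraries, which also gave the difference of effects, the rescalings and the block were not. Anti-IL-2 columns carry no replicate number and are called libraries A and B.

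All 33 genes are accounted for, and each gene tested in either experiment is described. Of the 2 further lists, up to 5 genes per experiment with the smallest adjusted p are named, and of neighbours up to 2 on either side, except 1 result that is not reported here. Zfp57, Tet1, H13 and the collagen genes were chosen once their values were known. The members and lists were chosen with earlier results of these data known. Positions, exon lengths and overlaps are from GENCODE vM21 on GRCm38, the assembly also called mm10, and need not match the annotation the authors counted on. Levels per kilobase use these exon lengths, which leave out annotated introns. For Kcnq1ot1 (93.1 kb) and Peg13 (4.725 kb) the whole annotated span counts as exon. Counting intervals and the limits of 3 reads cover counting error only. The lone library left when 1 of a pair is left out is assumed to vary like the others.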

Additional observations from a re-analysis of the deposited data

How the results depend on the processing

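In the knockout the calls in every alternative that tested them were Plagl1, Airn, Impact and Inpp5f, and with anti-IL-2 Igf2r, Airn, Plagl1, Peg10, Grb10, Blcap and Inpp5f. The anti-IL-2 effect on Peg10, and so its difference of effects, was not tested without either untreated library or with the filter at 50. Called counts moved by over 1.5 times in the following cases, and the cause was not tested. With DESeq2, which called 35.7% of all tested genes in the knockout against 61.0%, 1 imprinted gene was higher and 4 were lower in the knockout, against 4 and 7. Upper-quartile scaling, added after the data were seen, gave 2 higher. Without the filter, 3 were higher with anti-IL-2, against 5. Leaving out 1 library gave 2 to 3 higher and 3 to 6 lower in the knockout (2 higher without knockout replicate 1 or 2, 4 lower without knockout replicate 2 and 3 without control replicate 2), 4 to 6 higher and 4 to 8 lower with anti-IL-2, and 7 to 11 genes with different effects. Signs changed only for values that had not passed. Kcnq1ot1 in the knockout was -0.052 with upper-quartile scaling, -0.0064 with edgeR, -0.0073 with DESeq2 and -0.020 to 0.073 with 1 library left out. With anti-IL-2, Impact was -0.039 with upper-quartile scaling, -0.0055 with DESeq2 and -0.044 to 0.072 with 1 library left out, Mcts2 was -0.027 with upper-quartile scaling, and Trappc9 was -0.13 to 0.24 with 1 library left out. With 1 library left out Rian spanned -0.14 to 0.57 and Nnat -0.70 to 0.042 in the knockout. For the difference of effects, Cdkn1c was -0.070 with a pseudocount of 5 and -0.49 to 0.63 with 1 library left out, Nnat spanned -0.099 to 0.64 and Trappc9 -0.061 to 0.31. Over all single-gene alternatives, 744 kept direction and call, 48 lost a call, 20 gained one and 19 changed sign. With the replicate number as a block, 3 were higher and 8 lower in the knockout. Whether the numbers pair the samples is not stated, and 2 libraries per group cannot decide it. Deviations of same-numbered libraries correlated at 0.0127 over 15415 genes and at -0.108 over the 11999 genes at 50 or more. The crossed pairing gave 5 higher and 7 lower. The anti-IL-2 columns carry no numbers, so no block could be fitted there. Without the filter 5 were lower in the knockout, 1 of them Sgce.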

Other observations

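Snhg14, the non-coding RNA annotated antisense to the end of Ube3a and known in neurons for silencing the paternal Ube3a, was picked out after its values were seen. It had 123 and 242 normalised reads in knockout libraries, against 18.3 and 18.2 in control libraries, a log2 fold change of 3.17 (SE 0.3, limma adjusted p = 0.000361). Across the alternatives its log2 fold change lay between 2.69 and 3.66, with adjusted p from 3.07e-11 to 0.0231. The 2 knockout libraries differed from each other, and both lay above the control libraries. With anti-IL-2 it had 11.5 and 14.4 against 12.5 and 21.6 in untreated cells and did not pass (-0.33, adjusted p = 0.445). Its annotated span on chromosome 7 runs from 59307924 to 59975759 on the minus strand, and its exons share 1803 bases with those of Ube3a on the plus strand. Reads of the pair could not be told apart there, and Ube3a itself was slightly lower in the knockout.

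Gnas stood at 79.1 ± 1.48 and 71.8 ± 1.16 RPKM in knockout and control cells, and at 10.04 ± 0.163 and 8.35 ± 0.351 in anti-IL-2 and untreated cells (SD, n = 2 each). The experiments were scaled separately, and the length of activation in the knockout experiment is not given, so this gap was not tested.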
